A study of Caenorhabditis elegans with 4 samples.

Results

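The 10 genes described here make up the worm's route from homocysteine to cysteine and hydrogen sulfide, the mitochondrial enzymes that burn sulfide, and the switch that ties sulfide to the hypoxia factor HIF-1. They were taken by gene name from count tables of 46904 genes: cth-1, cth-2, cbs-1, cbs-2, cysl-1, cysl-2, rhy-1, egl-9, sqrd-1 and ethe-1. All 10 were found, and all 10 passed the filter on low counts. cbs-2, with 8 to 13 reads in a library, did so only through the libraries titled OP50, where it was the higher. RNA came from whole wild-type Bristol N2 hermaphrodites of the nematode Caenorhabditis elegans, about 200 worms pooled in each group, with 2 libraries for the food labelled OP50 + MH-1 and 2 for OP50. OP50 is the usual laboratory food of worms, a strain of Escherichia coli, and MH-1 is a lactic acid bacterium, Lactiplantibacillus sp. The study asked which genes differ with the bacteria fed. Its labels disagree on the feeding: the design text has an age of 4 days and 1 day of feeding, the treatment text a start at 1 day and 2 days on the plates, and the food with MH-1 is written both with and without OP50.

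Sample titles and column headings contradict each other, and every direction hangs on this. In all 4 tables the column of counts is headed with the food that the sample title does not give. Here "MH-1 libraries" are those titled for OP50 + MH-1 and "OP50 libraries" those titled for OP50 alone; by the column headings each rise would be a fall of the same size. Library totals lay between 15771890 and 21572225 counts, so 3 counts, the limit that a count of 0 allows, correspond to between 0.139 and 0.190 CPM (reads scaled to library size), for counting error only. Nothing states that replicates were separate cultures, so p-values speak only of how far these libraries spread, and that spread may be technical. Yolk protein genes of the adult hermaphrodite summed to 41690 and 70220 CPM in the MH-1 libraries and to 61580 and 60800 CPM in the OP50 libraries, and 10 sperm genes summed to between 2.55 and 4.04 CPM. In whole worms, fewer cells of a type and less RNA per cell cannot be told apart.

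In transsulfuration, cystathionine beta-synthase joins homocysteine from the methionine cycle to serine, and cystathionine gamma-lyase splits the product to give cysteine; both enzymes can also release hydrogen sulfide. Sulfide is oxidised in mitochondria, first by sulfide:quinone oxidoreductase and then by a persulfide dioxygenase. The same gas acts as a signal in worms: the prolyl hydroxylase EGL-9 marks HIF-1 for destruction, the cysteine synthase relative CYSL-1 binds EGL-9 and blocks it, and the membrane protein RHY-1 holds CYSL-1 in check. HIF-1 in turn is known to raise rhy-1, egl-9, cysl-2 and sqrd-1.

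Of the 10 genes, cth-1 rose in the MH-1 libraries, and no other passed the test in either direction. That is 1 of 10, or 10%, where 2.15% of the 12640 genes tested were called (272 genes at an adjusted p under 0.05 by edgeR's quasi-likelihood test with Benjamini-Hochberg adjustment). By direction, 1.82% of all genes tested were called higher (230) and 0.332% lower (42). The number called over all genes moved with single libraries. It was 99 higher and 20 lower without MH-1 replicate 1, 223 and 95 without MH-1 replicate 2, 395 and 93 without OP50 replicate 1, and 287 and 80 without OP50 replicate 2. cth-1 was called in each of these fits. Without adjustment, too, cth-1 was the 1 member with a p under 0.05, a level that 14.1% of all genes tested reached. The log2 fold change was positive for 7 members and negative for 3, with a median of 0.16 beside 0.0027 over all genes tested. The groups did not overlap in CPM for 6 members, 5 higher and 1 lower, where 46.0% of all genes tested did not overlap (24.4% higher and 21.6% lower). cbs-2, the 1 lower here and 1 of the 3 negative members, passed the filter only through its OP50 libraries.

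**Figure D1:**
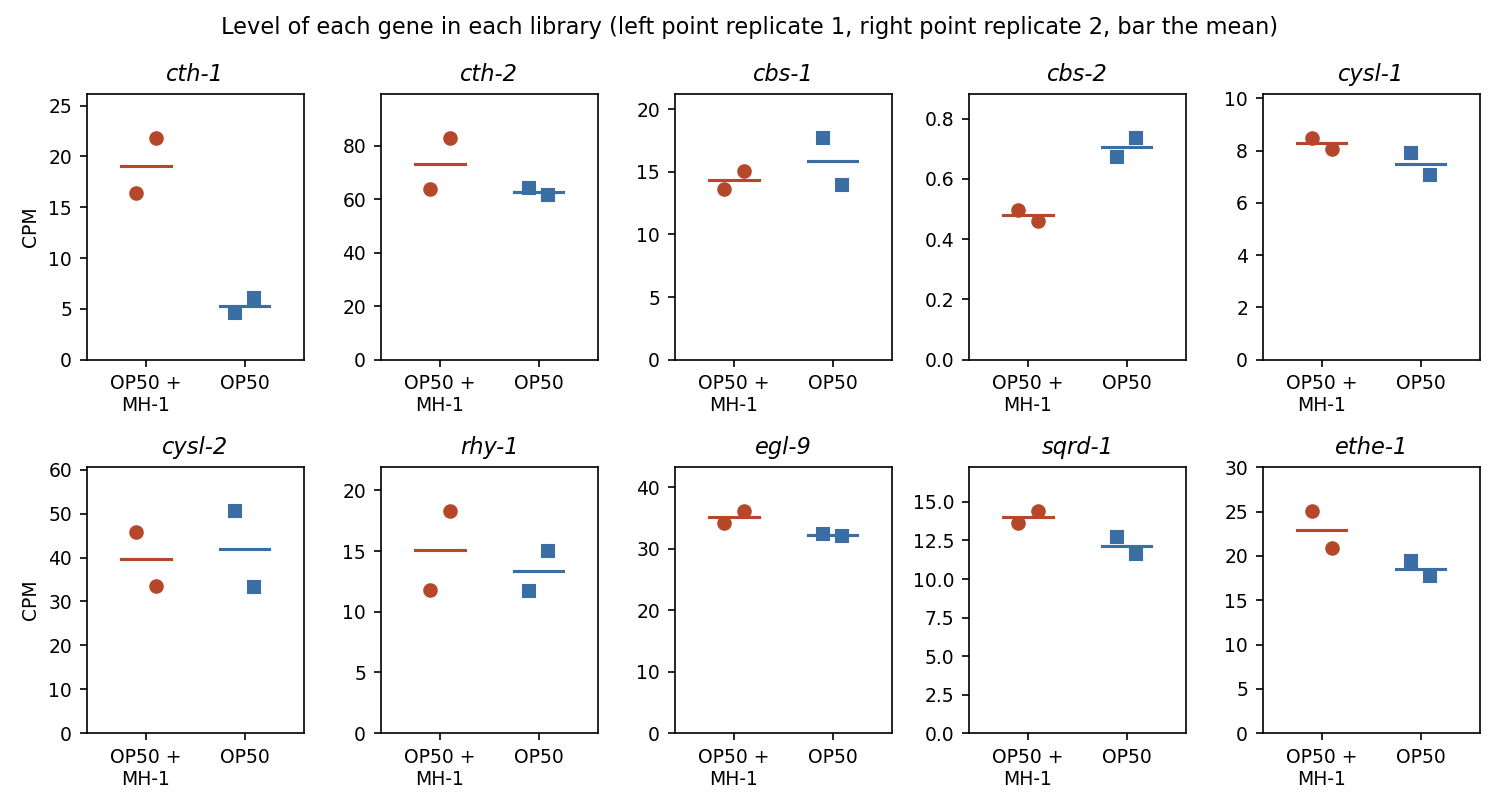
Level of each of the 10 genes in CPM (vertical axis, from 0, a separate scale for each gene) in the 2 MH-1 libraries (circles) and the 2 OP50 libraries (squares); bars are means. For cth-1 both circles lie at 16.4 and 21.8 CPM and both squares at or under 6.11 CPM, and no other gene shows such a gap.

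cth-1 encodes a cystathionine gamma-lyase, the enzyme that releases cysteine. It lies on the plus strand of chromosome V from 16100627 to 16102750 in ce11 (WBcel235), with 1349 exonic bases in 3 blocks, and no other annotated gene overlaps it. It had 264 and 473 reads in the MH-1 libraries, against 81 and 108 reads in the OP50 libraries. Scaled to library size, these are 16.4 and 21.8 CPM with MH-1 and 4.54 and 6.11 CPM with OP50 alone. Both MH-1 libraries were thus above both OP50 libraries, by more than the 1.33-fold and 1.35-fold gaps between libraries of 1 group. The means were 19.1 ± 3.87 CPM with MH-1 and 5.33 ± 1.11 CPM without (SD, n = 2 each). The log2 fold change was 1.84 ± 0.23 (SE), a 3.59-fold rise with a 95% interval of 1.30 to 2.38 on the log2 scale (edgeR quasi-likelihood test, adjusted p = 0.0168). By p-value it ranked 64 among the 12640 genes tested, and by fold it also ranked 64 among the 230 called higher. Without MH-1 replicate 2 the adjusted p was 0.0434, the highest of the fits that leave out a library, and the lowest was 8.22e-05 without OP50 replicate 2.

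Markers of embryos and of larval cuticle also differed between the groups, and their part in the rise of cth-1 was not tested. The marker counts stand beside 1.82% of all genes tested called higher and 0.332% called lower. Of 14 tested embryo markers, 4 rose and none fell. Their log2 fold changes were positive for 11 and negative for 3 (tbx-35, end-1 and end-3). The list's 16 genes summed to 418 and 389 CPM in the MH-1 libraries and to 252 and 228 CPM in the OP50 libraries, with med-2 at 0 in all libraries. Of 12 tested cuticle and molting markers, 7 rose and none fell, with log2 fold changes positive for 9 and negative for 3. This list summed to 443 and 273 CPM with MH-1 and 111 and 74.1 CPM without, with bli-1 at 0 in all libraries. Within each group, replicate 1 had the higher sum of both lists and the lower level of cth-1. Of 10 intestine markers, none rose and 1 fell, with log2 fold changes positive for 4 and negative for 6. Their sums were 1731 and 2057 CPM with MH-1 and 3284 and 3515 CPM without. Most of each sum came from asp-1 and from cpr-1, the marker that fell. asp-1 had 1101 and 1427 CPM with MH-1 and 1832 and 2096 CPM without. cpr-1 had 404 and 385 CPM with MH-1 and 1202 and 1158 CPM without.

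The second cystathionine gamma-lyase gene, cth-2, is on the minus strand of chromosome II from 7056173 to 7058014. It had 63.8 and 83.0 CPM in the MH-1 libraries and 64.2 and 61.6 CPM in the OP50 libraries. The groups overlap, and the high value is that of 1 library, MH-1 replicate 2. The log2 fold change was 0.22 ± 0.13 (SE; 95% interval -0.08 to 0.53; edgeR adjusted p = 0.501), an interval whose upper end lies below the lower end for cth-1. A stretch of 19 of its exonic bases overlaps the gene ZK1127.3 on the other strand, and the sources used here do not state the strand setting of the counting.

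The share of the pair's reads that fell on cth-1 was larger in both MH-1 libraries than in either OP50 library. cth-1 held 20.4% of cth-1 and cth-2 reads in MH-1 replicate 1 (95% Wilson interval 18.3 to 22.7%) and 20.8% in replicate 2 (19.2 to 22.5%). In the OP50 libraries it held 6.61% (5.35 to 8.14%) and 9.02% (7.53 to 10.8%). Per exonic length of the gene, cth-1 stood at 0.265 and 0.271 of the level of cth-2 with MH-1, and at 0.073 and 0.102 of it with OP50 alone. With 2 libraries in each group an exact two-sided permutation test of this share cannot go below p = 0.333, so none is given. The sources used here do not state how reads fitting both genes were counted.

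**Figure D2:**
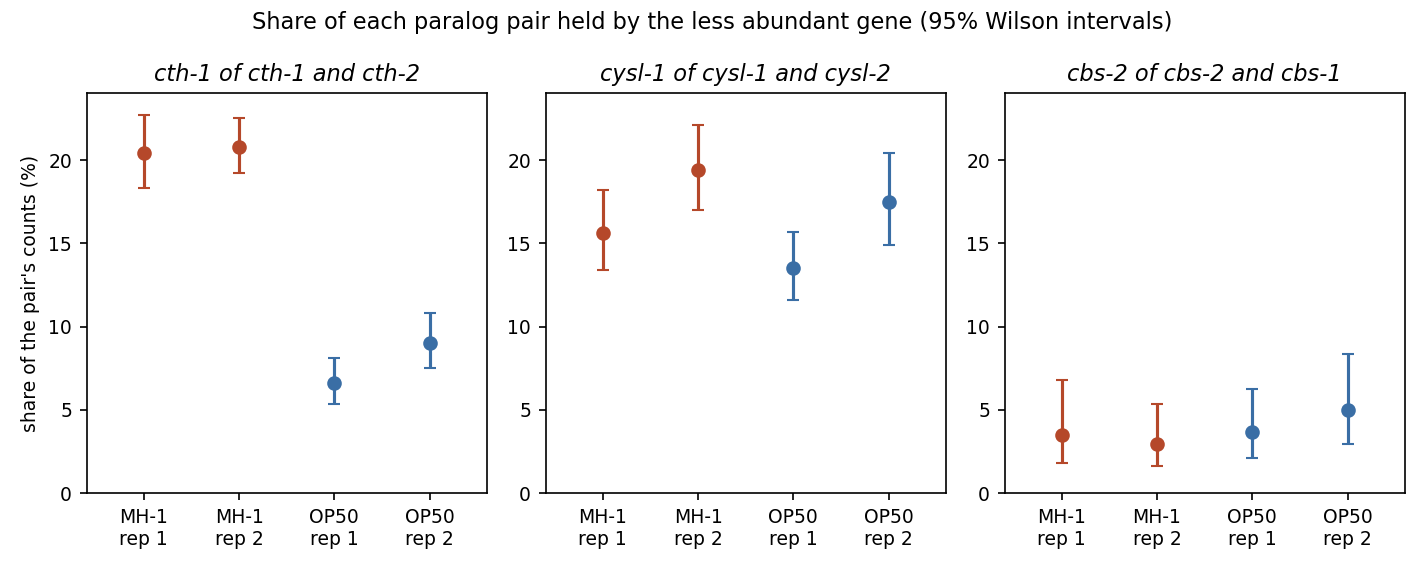
Share of a paralog pair's reads (vertical axis, %) that fell on the less abundant gene, in each library, with 95% Wilson intervals that cover counting error only. The cth-1 share is 20.4 and 20.8% in the MH-1 libraries and 6.61 and 9.02% in the OP50 libraries, while the cysl-1 share, 15.6 and 19.4% with MH-1 and 13.5 and 17.5% without, overlaps between the groups; the cbs-2 intervals overlap across all 4 libraries.

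Upstream of these lyases, neither cystathionine beta-synthase gene passed the test. cbs-1, the more abundant of them (chromosome X, 10054281 to 10057524), had 13.6 and 15.1 CPM in the MH-1 libraries and 17.7 and 14.0 CPM in the OP50 libraries. The groups overlap, with a log2 fold change of -0.14 ± 0.17 (SE; 95% interval -0.54 to 0.26; edgeR adjusted p = 0.780) that was 0.04 without OP50 replicate 1. cbs-2 (chromosome II, 2220464 to 2223567) was close to the detection limit, with 8 and 10 reads with MH-1 and 12 and 13 reads without. It passed the filter on low counts only through the OP50 libraries, where it was the higher, so nothing is drawn from its direction. Its levels of 0.496 and 0.461 CPM lay under the 0.673 and 0.736 CPM of the OP50 libraries, but the 95% interval of its log2 fold change ran from -1.86 to 0.75 around -0.55 (edgeR adjusted p = 0.723). A 2-fold fall of cbs-2 lies inside that interval and could not be told from no change at this depth.

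Neither cysteine synthase relative passed the test. cysl-1, the sulfide-sensing partner of EGL-9 (chromosome X, 9952579 to 9954533), had 8.49 and 8.07 CPM in the MH-1 libraries and 7.91 and 7.08 CPM in the OP50 libraries. Its groups did not overlap, but the difference was small: a log2 fold change of 0.14 ± 0.20 (SE; 95% interval -0.32 to 0.61; edgeR adjusted p = 0.811). cysl-2 encodes an enzyme that detoxifies cyanide with cysteine, and its RNA is a standard readout of HIF-1 activity (chromosome II, 14492826 to 14494514). It had 45.8 and 33.5 CPM with MH-1 and 50.5 and 33.4 CPM with OP50 alone. In both groups replicate 1 was the higher, by 1.37-fold with MH-1 and 1.51-fold without, gaps larger than the difference between the means. The log2 fold change was -0.08 ± 0.22 (SE; 95% interval -0.60 to 0.43; edgeR adjusted p = 0.912), and it was 0.24 without OP50 replicate 1 and 0.13 without MH-1 replicate 2. An exonic stretch of 84 bases of cysl-2 overlaps vnut-1 on the other strand, which stood at 27.9 ± 2.90 CPM with MH-1 and 30.3 ± 0.12 CPM without (SD, n = 2 each).

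The 2 brakes on HIF-1 among the members, rhy-1 and egl-9, did not pass the test either. rhy-1 (chromosome II, 9161379 to 9163448) had 191 and 396 reads in the MH-1 libraries and 209 and 265 reads in the OP50 libraries, or 15.1 ± 4.55 CPM with MH-1 and 13.4 ± 2.32 CPM without (SD, n = 2 each). The groups overlap. In CPM, replicate 2 was the higher in both groups, 1.54-fold with MH-1 and 1.28-fold without, the opposite order to cysl-2. Its log2 fold change was 0.18 ± 0.24 (SE; 95% interval -0.39 to 0.74; edgeR adjusted p = 0.806) and turned to -0.18 without MH-1 replicate 2. egl-9 (chromosome V, 10468411 to 10476952) was the steadiest gene of the 10 by standard error, with 34.3 and 36.1 CPM with MH-1 and 32.4 and 32.0 CPM without. Its groups did not overlap, and the log2 fold change of 0.13 ± 0.10 (SE; 95% interval -0.10 to 0.36; edgeR adjusted p = 0.626) had the narrowest interval of the 10.

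The mitochondrial sulfide-burning enzymes did not pass the test. sqrd-1, the sulfide:quinone oxidoreductase gene (chromosome IV, 14219871 to 14224439), had 13.6 and 14.4 CPM with MH-1 and 12.7 and 11.6 CPM without. ethe-1, the persulfide dioxygenase gene (chromosome IV, 9506936 to 9508779), had 25.02 and 20.85 CPM with MH-1 and 19.4 and 17.7 CPM without. Neither gene's groups overlapped. The log2 fold change was 0.20 ± 0.15 for sqrd-1 (SE; 95% interval -0.16 to 0.57; edgeR adjusted p = 0.622). For ethe-1 it was 0.30 ± 0.14 (SE; 95% interval -0.03 to 0.63; edgeR adjusted p = 0.397), the largest positive value after cth-1.

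**Figure D3:**
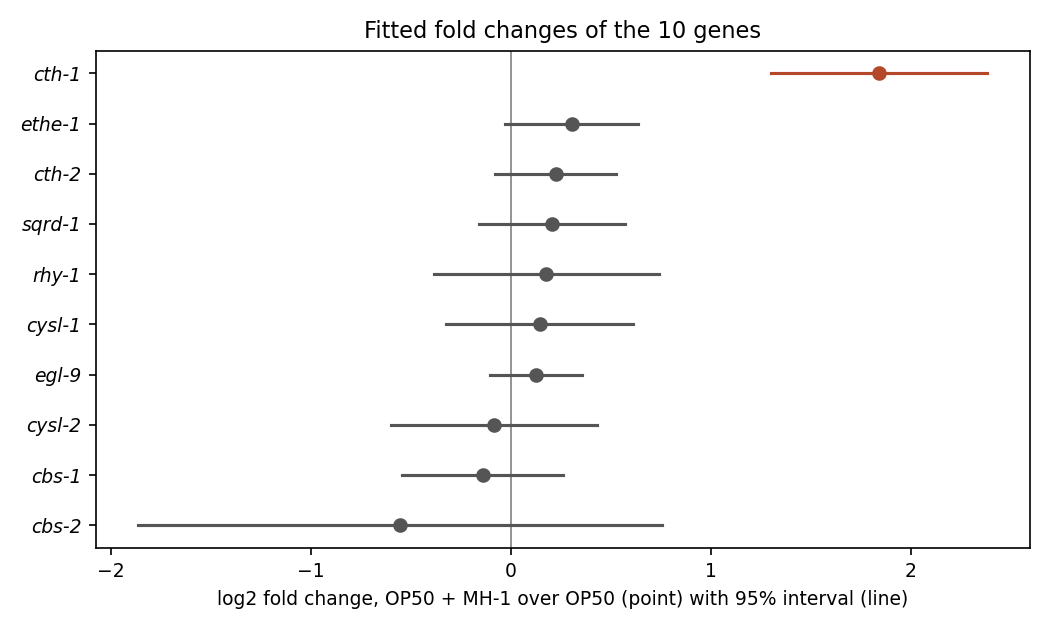
Log2 fold change of each gene, OP50 + MH-1 over OP50 (horizontal axis), with its 95% interval from the fit across all genes tested. The interval of cth-1 runs from 1.30 to 2.38 and that of every other member includes 0; cbs-2 has the widest, from -1.86 to 0.75.

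Per kilobase of exonic length the 10 genes spanned a wide range of levels. That length is given per gene and takes no account of which transcripts were present. The annotation of the tables has 8 transcripts for egl-9 and 3 for cth-1. As a mean over the 4 libraries, cth-2 was the highest at 48.9 CPM per kilobase, followed by cysl-2 at 33.1, and the lowest library of cth-2 was above the highest of cysl-2. ethe-1 came next at 24.4 and overlapped cysl-2. egl-9 followed at 11.7, and cth-1, which averaged 9.05, spanned from 3.37 in OP50 replicate 1 to 16.2 in MH-1 replicate 2. In the OP50 libraries, cth-1 was thus the ninth of the 10, above cbs-2 alone. With MH-1 it stood at 12.1 and 16.2 CPM per kilobase, against 11.9 and 12.5 for egl-9, and so was the fourth in both MH-1 libraries. rhy-1 at 8.52, sqrd-1 at 7.88, cbs-1 at 6.61 and cysl-1 at 6.38 each overlapped the next in this order. cbs-2, at 0.293, lay below all others in every library.

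The wider pathway was read from 4 lists written with earlier results of these data known, so they are described by counts beside those of all genes. Of 18 further genes listed for cysteine and sulfide metabolism, 16 were found by name, and 11 of them passed the filter and were tested. None was called either way, beside the 2.15% called of all genes, and the median log2 fold change was -0.02. cdo-1, the cysteine dioxygenase that disposes of excess cysteine and is raised by HIF-1, had 20.7 and 14.4 CPM with MH-1 and 18.5 and 16.5 CPM without. Its log2 fold change was -0.0008, with a 95% interval of -0.46 to 0.46. Glutathione synthesis, which uses cysteine, gave log2 fold changes of -0.09 ± 0.08 for gcs-1, the glutamate-cysteine ligase, and -0.19 ± 0.08 for gss-1, the glutathione synthetase (SE). got-1.2, a predicted aspartate aminotransferase, stood at -0.32 ± 0.13 (SE; edgeR adjusted p = 0.348).

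In the methionine cycle, which feeds homocysteine into transsulfuration, 10 of 11 listed genes were found by name, and all 10 were tested. Of these, 1 fell and none rose, beside the 0.332% called lower and 1.82% called higher of all genes. The gene that fell was pmt-1, which spends S-adenosylmethionine on phosphocholine synthesis, with 213 and 197 CPM with MH-1 and 330 and 349 CPM without (log2 fold change -0.73 ± 0.08, SE; edgeR adjusted p = 0.0118). Of the 10 log2 fold changes, that of pmt-1 included, 9 were negative. The median of the 10 was -0.21, beside 0.0027 over all genes tested. The 16 oocyte and germline markers were all negative as well, with a median of -0.14 and none called. Their part in the methionine cycle values was not tested. ahcy-1, which makes homocysteine, had 1399 and 1231 CPM with MH-1 and 1639 and 1603 CPM without, a log2 fold change of -0.30 ± 0.11 (SE; edgeR adjusted p = 0.294). metr-1, methionine synthase, which turns homocysteine back to methionine, stood at -0.28 ± 0.09 (SE; edgeR adjusted p = 0.208). sams-1, an S-adenosylmethionine synthetase, had 64.5 and 92.0 CPM with MH-1 and 89.0 and 93.8 CPM without. Only MH-1 replicate 1 was low, and without it the log2 fold change of sams-1 was 0.01.

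None of the 8 tested core genes of the HIF-1 pathway was called, beside the 2.15% called of all genes. Their median log2 fold change was 0.03. hif-1 itself had 197 and 194 CPM with MH-1 and 206 and 185 CPM without, and the 95% interval of its log2 fold change ran from -0.18 to 0.19. vhl-1, the ubiquitin ligase adaptor that removes hydroxylated HIF-1, had 7.93 and 7.15 CPM with MH-1 and 6.11 and 4.53 CPM without, a log2 fold change of 0.50 ± 0.24 (SE; edgeR adjusted p = 0.425). swan-1, which codes for a WD-repeat protein that binds EGL-9, stood at 0.23 ± 0.11 (SE; edgeR adjusted p = 0.431).

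Of 9 tested genes known to lie downstream of HIF-1, 2 rose and 1 fell, all 3 of them iron genes, beside the 2.15% called of all genes. The median log2 fold change of the 9, cdo-1 among them, was 0.48. The list holds both genes that HIF-1 raises and genes that it lowers, so the sign of this median does not read HIF-1 activity. The ferritin genes ftn-1 and ftn-2 code for iron storage; HIF-1 is known to lower both when iron is scarce and to raise smf-3, a metal importer. ftn-2 had 282 and 250 CPM with MH-1 and 139 and 121 CPM without (log2 fold change 1.04 ± 0.10, SE; edgeR adjusted p = 0.00936). ftn-1 had 37.4 and 12.8 CPM with MH-1 and 3.42 and 1.25 CPM without, groups that do not overlap although the libraries within each differ by more than 2-fold (log2 fold change 3.41 ± 0.61, SE). smf-3 fell to 1.36 and 1.02 CPM with MH-1, against 4.71 and 7.81 CPM without (log2 fold change -2.40 ± 0.37, SE; edgeR adjusted p = 0.0302). The call of ftn-1 (edgeR adjusted p = 0.0430) was lost without MH-1 replicate 1 (0.0888), with limma-voom (0.196), with robust dispersion (0.258) and with legacy=FALSE, another way edgeR estimates dispersion (0.0561). The log2 fold change of ftn-1 ranged from 2.46 (without MH-1 replicate 1) to 4.31 (without OP50 replicate 1) in the fits that leave out a library. The call of smf-3 was lost without MH-1 replicate 1 (0.0693), without MH-1 replicate 2 (0.0859) and with limma-voom (0.0684).

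Of the output genes not called, nhr-57 and phy-2 had positive log2 fold changes and fmo-2 a negative one. F22B5.4, under the 5 CPM limit for naming and named after its value was seen, was also positive. It had 4.71 and 1.89 CPM with MH-1 and 0.897 and 1.64 CPM without (log2 fold change 1.36 ± 0.54 SE, edgeR adjusted p = 0.331). Over the 9 genes of the list, called ones included, 5 log2 fold changes were positive and 4 negative. nhr-57, a nuclear receptor gene, had 11.3 and 10.4 CPM with MH-1 and 8.24 and 7.30 CPM without, a log2 fold change of 0.48 ± 0.19 (SE; edgeR adjusted p = 0.311). phy-2, a collagen prolyl 4-hydroxylase subunit that also serves the cuticle, had 80.8 and 34.4 CPM with MH-1 and 22.9 and 12.2 CPM without (log2 fold change 1.71 ± 0.43, SE; edgeR adjusted p = 0.125). Its order over the 4 libraries was that of the summed cuticle and molting markers given above, and their part in it was not tested. phy-2 was called without OP50 replicate 1 (adjusted p = 0.000857), without OP50 replicate 2 (0.0162) and without MH-1 replicate 2 (0.0270). Without MH-1 replicate 1 its log2 fold change was 0.98 (adjusted p = 0.315). fmo-2, a flavin monooxygenase gene, had 2.23 and 2.12 CPM with MH-1 and 5.89 and 17.9 CPM without (log2 fold change -2.45 ± 0.51, SE; edgeR adjusted p = 0.0745), and the adjusted p was 8.09e-06 without OP50 replicate 1, where the log2 fold change was -3.04. Leaving out OP50 replicate 2 gave -1.44 for fmo-2 on the log2 scale (adjusted p = 0.0639). The members that HIF-1 is known to raise, rhy-1, egl-9, cysl-2 and sqrd-1, had log2 fold changes between -0.08 and 0.20.

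**Figure D4:**
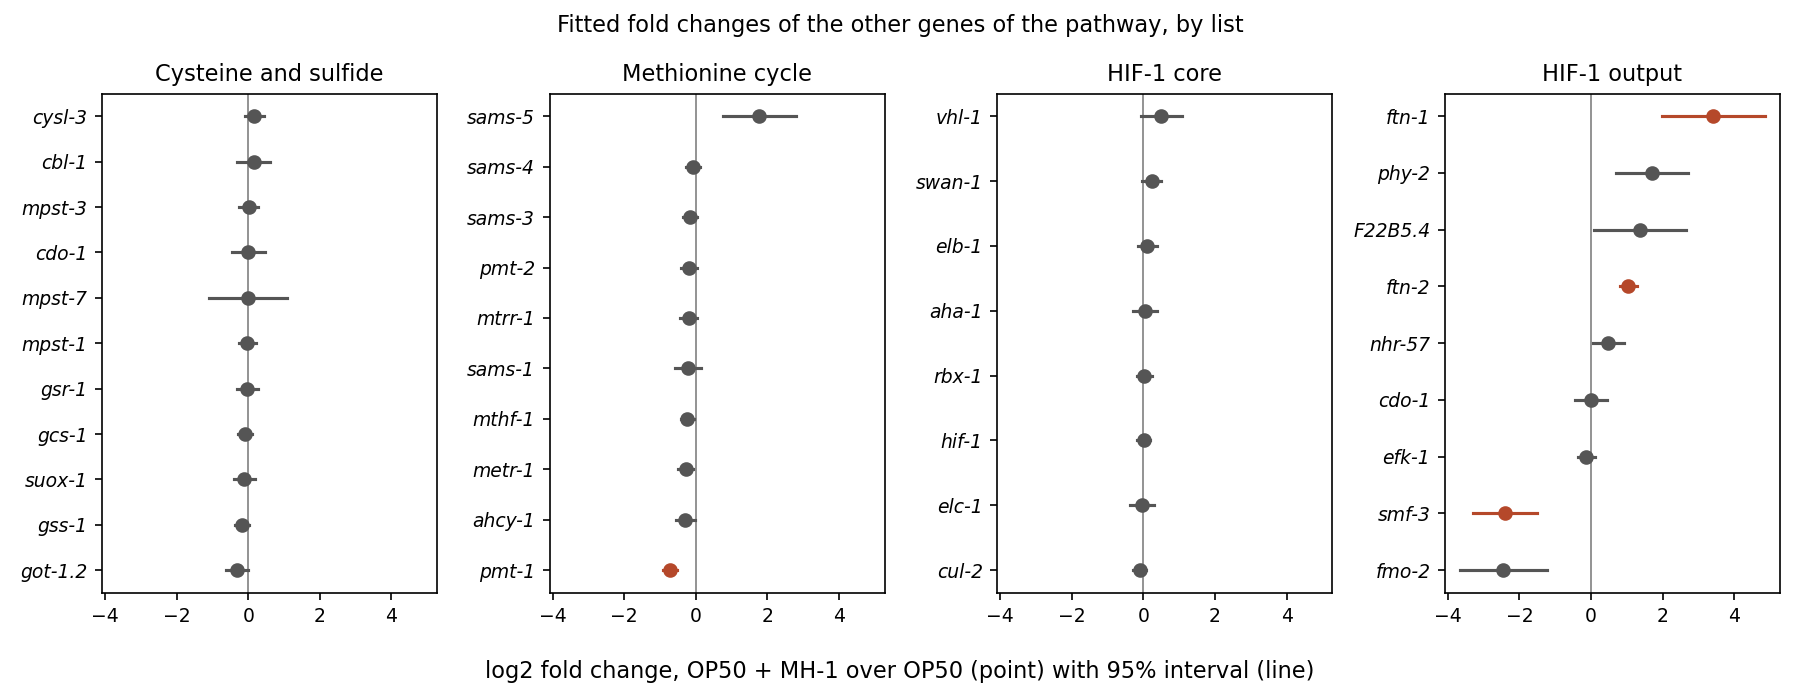
Log2 fold change, OP50 + MH-1 over OP50, with its 95% interval for every tested gene of the 4 lists; coloured points passed the test. pmt-1, smf-3, ftn-1 and ftn-2 are coloured, and the genes of cysteine and sulfide metabolism and of the HIF-1 core lie between -0.32 and 0.50.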

How the data were processed

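Per the labels' protocols, poly(A) RNA of whole worms was made into strand-preserving libraries. The named tools are featureCounts 2.0.1, STAR 2.7.10a, cutadapt 3.7, Trimmomatic 0.39 and Trim Galore 0.6.7, on build ce11 (WBcel235), per the submitters' processing notes. The sources used here state neither their order, nor the strand setting, nor what was done with reads fitting several places. The authors deposited raw read counts, 1 whole number for each gene, per the file headers.

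The 10 members and the 4 lists were chosen with earlier results of these data known. Groups follow the sample titles. Counts were fitted in R 4.3.3 with edgeR 4.0.16 (filterByExpr with minimum count 10 and minimum total 15, TMM factors, glmQLFit and glmQLFTest at package defaults, group as the only term), and p-values were adjusted by Benjamini-Hochberg over 12640 genes, with 0.05 as the threshold. The SE is the log2 fold change divided by the square root of F, and 95% intervals use the fit's t quantiles. CPM are scaled to TMM-adjusted sizes; levels per kilobase use the deposited gene length. Genes named from the 4 lists are all called genes, 6 to be named whether called or not, and the 2 largest uncalled changes in each list with at least 5 CPM on average. This choice, too, was made with earlier results known. F22B5.4 and sams-5 were added after their values were seen. Marker genes, overlapping genes and neighbours of members are named outside this rule. Coordinates are those of the tables; 46817 identifiers were found in Ensembl release 115, 69.1% with the same start, end and strand, and overlaps come from that annotation. Every pair of libraries differed by more than sampling noise, with a chi-square of 10.1 or more for each degree of freedom. The fit was tested on simulated data. Alternatives covered scaling, filter, tool (DESeq2 1.42.0, limma 3.58.1 with voom), dispersion, a replicate block and each library left out. Figures used matplotlib 3.10.9.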

Additional observations from a re-analysis of the deposited data

How the results depend on the processing

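The rise of cth-1 passed the threshold under all 12 alternatives (log2 fold change 1.62 to 2.07, highest adjusted p 0.0434), and no other member was called under any of them. Without 1 library, the log2 fold change of cbs-1 ranged from -0.31 to 0.039, of cysl-2 from -0.36 to 0.24, of rhy-1 from -0.18 to 0.46, of sams-1 from -0.50 to 0.014, of cdo-1 from -0.28 to 0.24 and of hif-1 from -0.075 to 0.080; that of cdo-1 was also 0.0038 with no filter and 0.0459 with total counts only, and that of hif-1 was -0.0079 with DESeq2 size factors and with DESeq2. Over all genes, 369 were called higher and 95 lower with DESeq2, 135 and 27 with limma-voom, 815 and 297 with no filter, 450 and 109 with the replicate block, and 99 to 395 and 20 to 95 without 1 library. Of the HIF-1 output list, 1 gene was called higher with legacy=FALSE, limma-voom or robust=TRUE, 4 with no filter and 1 to 3 without 1 library. Called lower there were 0 with limma-voom, 2 with DESeq2, no filter, the replicate block or total counts only, and 0 to 2 without 1 library. With no filter 1 methionine cycle gene was called higher. phy-2 and fmo-2, not called in the report, were each called under 5 of the 12 alternatives, and ftn-1 under 8 of them. The cause of these shifts was not tested, except that a fit without 1 library has fewer samples and takes the spread of the lone library from the other group. Same-numbered replicates deviated from their group means with a correlation of 0.209, but nothing says that equal numbers share a culture; the replicate block left cth-1 called (adjusted p 0.000723). At this depth cbs-2, with 8 to 13 reads, limits what can be said of it.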

Other observations

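The nearest tested genes on both sides of each member, 20 in all, were read for calls after the members' values were known. argk-1 was the 1 called, 5% of them beside 2.15% of all genes tested, and is named after its value was seen. It codes for an arginine kinase, an enzyme that buffers ATP, and starts 1143 bases beyond the end of cth-1 on the same strand of chromosome V (16103894 to 16105950). argk-1 had 9.60 and 17.9 CPM in the MH-1 libraries and 1.51 and 1.81 CPM in the OP50 libraries. Its log2 fold change was 3.05 ± 0.36 (SE; edgeR adjusted p = 0.0146, but 0.0562 with limma-voom), and in both groups replicate 2 was the higher, as for cth-1. On the other side of cth-1, str-7, a chemoreceptor-family gene on the opposite strand, was under 1 CPM in every library. F22B8.7, the next gene beyond it, had 25.8 and 22.2 CPM with MH-1 and 16.5 and 13.4 CPM without (log2 fold change 0.68 ± 0.16, SE; edgeR adjusted p = 0.0992). skr-3, the next tested gene beyond argk-1, stood at -0.22 ± 0.24 (SE).

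sams-5, a low-level S-adenosylmethionine synthetase gene named after its value was seen, was the 1 methionine cycle gene with a positive log2 fold change. It had 2.42 and 3.92 CPM in the MH-1 libraries and 1.12 and 0.736 CPM in the OP50 libraries, and did not pass (log2 fold change 1.77 ± 0.43, SE; edgeR adjusted p = 0.118, and 0.00104 with no filter on low counts).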
